A study of Mus musculus with 39 samples.

Results

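Gene deserts were taken as stretches of at least 500000 bp between neighbouring protein-coding genes on chromosomes 1 to 19 of the mouse genome (mm10), with overlapping genes merged and the stretch before the first gene of each chromosome left out. Of 18023 stretches between neighbouring genes, 601 were deserts. They covered 699 Mb, or 28.4% of the 19 chromosomes, and their median length was 881 kb, with quartiles of 660 and 1371 kb and a longest desert of 4668 kb. The limit of 500 kb cut through a continuous range. The stretches just inside it were Myh15-Ift57 with 500128 bp and Spaca1-Akirin2 with 500745 bp, and those just outside were Srrm4-Suds3 with 499862 bp and Luzp2-Siglech with 499292 bp. Myh15-Ift57 was loose and late over 100% of its length and Srrm4-Suds3 over 0%, and the other pair lay between them.

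The cells were R1, a wild-type line of mouse embryonic stem (ES) cells. H3-wrapping-seq, with 4 libraries from 2 independent experiments, measures the lengths of MNase-protected fragments pulled down with histone H3, and gave a list of nucleosome wrapping domains (NRDs) that are tight (TiNRD, positive wrapping index) or loose (LoNRD, negative index). Replication timing (RT) was measured in 8 libraries of BrdU-labelled DNA from 4 fractions of S phase (S1 to S4). The list made from 1 or both of the 2 experiments holds domains that replicate early (positive log2 value) or late (negative). The authors called these domains from log2 ratios after quantile normalization, so a log2 value is not read here as a raw ratio. Each list holds 1 value for a domain, no replicate and no read numbers, so the depth behind a call cannot be read from it. No test was done, and the spread is given over 19 chromosomes.

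A gene desert is a long part of the genome without protein-coding genes. Some deserts hold distal enhancers of the developmental genes beside them, while others have few known functions, and long intergenic DNA is often rich in A/T and in repeats. Such DNA commonly replicates late in S phase and lies at the nuclear lamina. The lengths of MNase fragments show how far DNA is held by the histone octamer, and MNase itself cuts A/T-rich DNA more readily.

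What a desert is made of can be seen from 200 bases at the middle of 4 of them, with runs of at least 5 A or T in capitals (GRCm38, forward strand). They are shown because A/T content ran along with the calls of the deserts, as described later. The first lies in the longest desert (chr8:51177739-51177938), the second in the longest desert that was tight and early (chr14:53365514-53365713), the third in the desert of lowest A/T content (chr5:111990434-111990633) and the fourth in that of highest A/T content (chr16:68738791-68738990).
Tenm3-Aga: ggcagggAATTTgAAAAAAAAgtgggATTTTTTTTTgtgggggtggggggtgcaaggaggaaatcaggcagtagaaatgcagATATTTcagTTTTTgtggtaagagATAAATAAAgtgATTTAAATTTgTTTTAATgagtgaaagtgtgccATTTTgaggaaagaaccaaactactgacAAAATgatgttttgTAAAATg
Olfr1507-Dad1: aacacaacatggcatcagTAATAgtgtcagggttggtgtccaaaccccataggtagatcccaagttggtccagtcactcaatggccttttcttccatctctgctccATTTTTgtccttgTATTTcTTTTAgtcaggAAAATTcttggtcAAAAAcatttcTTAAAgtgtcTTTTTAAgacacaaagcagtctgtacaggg
Gm26897-Cryba4: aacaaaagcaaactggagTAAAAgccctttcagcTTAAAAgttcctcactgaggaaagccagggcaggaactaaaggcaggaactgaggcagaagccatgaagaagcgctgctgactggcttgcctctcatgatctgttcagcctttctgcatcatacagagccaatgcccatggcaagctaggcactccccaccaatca
Cadm2-Speer2: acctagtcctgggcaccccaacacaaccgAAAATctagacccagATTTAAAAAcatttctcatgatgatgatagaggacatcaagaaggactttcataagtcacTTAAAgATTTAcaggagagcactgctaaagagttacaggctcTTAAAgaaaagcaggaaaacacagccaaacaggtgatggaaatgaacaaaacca
The window of the longest desert held 11 such runs over 76 bases, and that of the desert of lowest A/T content held 2 runs over 11 bases. The window of highest A/T content is annotated as repeat over all 200 bases and holds 60% A/T, less than its desert as a whole, so that a window of this size does not stand for a desert.

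Gene deserts were mostly loose and late. Of their called length, 81.7% lay in LoNRDs and 90.0% in late RT domains, compared with 32.8% and 37.7% of all other bases. Of the length with both calls, 78.6% was loose and late, 11.4% tight and late, 6.59% tight and early and 3.39% loose and early. In all other bases these 4 shares were 25.9%, 13.1%, 54.5% and 6.53%. Deserts thus held 50.8% of the LoNRD length and 48.9% of the late length of the 19 chromosomes, but only 127 of 1258.5 Mb of TiNRDs and 67.6 of 1119.7 Mb of early domains, while they make up 28.4% of the bases.

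The shares moved with length. In deserts of 500 kb to 1 Mb (n = 353), 66.8% of the called length was loose and 82.9% late. In deserts of 1 to 2 Mb (n = 177) these were 84.3% and 91.9%, and in deserts of 2 Mb or more (n = 71) they were 96.6% and 96.2%. Shorter stretches between genes were much less loose and late. Stretches of 100 to 500 kb (n = 1835) were loose over 38.7% and late over 50.0% of the called length, stretches under 100 kb (n = 15587) over 24.0% and 27.8%, and merged gene bodies (n = 18052) over 33.3% and 38.5%. A/T content went the same way as length, with 59.4%, 60.8% and 62.5% in the 3 length classes of deserts and 57.5% in stretches of 100 to 500 kb, and its part in the step with length was not tested.

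**Figure D1:**
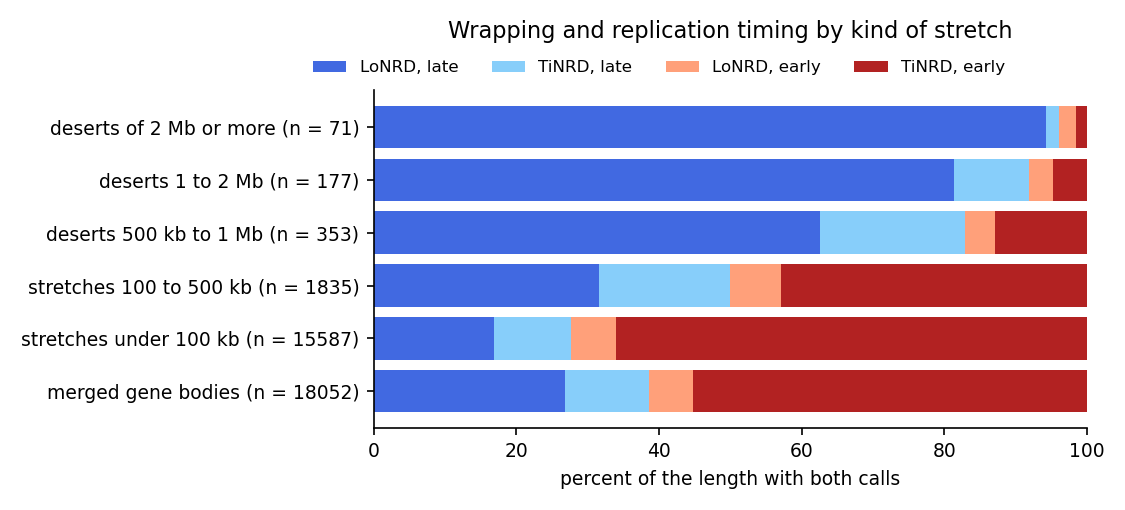
Bars show the percent of length with both calls in each of the 4 combinations of wrapping and timing, for deserts of 3 length classes, shorter stretches between genes and merged gene bodies. The loose and late part falls from 94.3% in deserts of 2 Mb or more to 62.6% in deserts of 500 kb to 1 Mb and 31.6% in stretches of 100 to 500 kb.

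The desert share was above that of the other bases of the same chromosome on all 19 chromosomes for both measures. The LoNRD share of deserts was 81.3% ± 8.54 (SD over 19 chromosomes), from 59.2% on chromosome 7 to 90.9% on chromosome 10, and that of the other bases was 32.5% ± 7.55. The late share was 89.8% ± 3.25, from 78.8% on chromosome 13 to 93.4% on chromosome 9, against 37.6% ± 6.42 in the other bases. The timing of deserts therefore varied less between chromosomes than their wrapping. The difference between deserts and the other bases was 48.8 ± 8.74 percentage points for LoNRDs and 52.2 ± 6.36 for late domains, and chromosome 11 had the highest value of both, with 65.1 and 66.4.

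**Figure D2:**
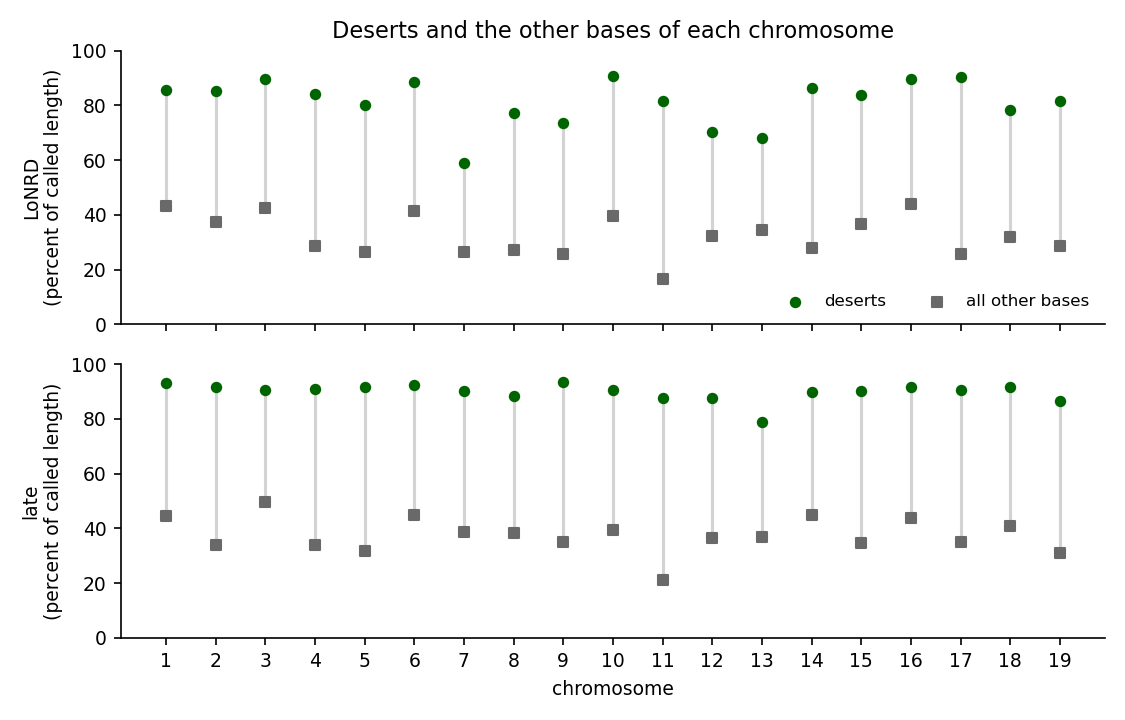
Points show, for each chromosome, the percent of called length in LoNRDs (upper panel) and in late domains (lower panel) for deserts (circles) and all other bases of that chromosome (squares). The circle is above the square in all 19 pairs of both panels, and the circles are spread more widely for LoNRDs (59.2% to 90.9%) than for late domains (78.8% to 93.4%).

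Counted by desert, 397 of 601 (66.1%) were loose over at least 80% of the length, where 41.3% of all 500 kb windows of the 19 chromosomes were. For late domains these were 426 deserts (70.9%) against 42.8% of windows, and for both at once 333 deserts (55.4%) against 32.8%. LoNRDs took the whole length of 292 deserts (48.6%), against 37.2% of windows, and late domains that of 215 deserts (35.8%), against 35.5%, a share near that of the windows, which are no longer than the shortest deserts. All windows include those inside deserts. Of 3502 windows with less than 50% of desert, 26.4% were loose and 28.1% late by the same rule. At the other end, 108 deserts were tight over at least 80%, against 46.9% of windows, 21 deserts (3.49%) were early, against 38.1%, and 17 deserts (2.83%) were both tight and early, against 31.5%. Of the 108 tight deserts, 38 were late and 17 early over at least 80%, and the largest group, 53, was neither. At least 50% tight and at least 50% late together were found in 105 deserts (17.5%), against 13.2% of windows, and loose and early in 8 deserts (1.33%), against 6.02%. In stretches of 100 to 500 kb these shares were 16.6% and 7.19%, so that the tight and late share of deserts was near theirs.

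The 6 longest deserts all belonged to the loose and late group. The longest, Tenm3-Aga (chr8:48843952-53511726), lies between a teneurin, an adhesion protein of neurons, and the lysosomal enzyme aspartylglucosaminidase. It was loose over 100% and late over 96.8% of its 4668 kb, with a wrapping index of -1.16 and an RT log2 value of -0.87. Here and below, the index and log2 value of a desert are means of the domains' deposited values weighted by length. Pcdh20-Pcdh9 (chr14:88471397-93013409), between protocadherins, measured 4542 kb with an index of -1.09 and a log2 value of -0.89. Celf4-Pik3c3 on chromosome 18, between an RNA-binding protein and a lipid kinase, measured 4519 kb and was the only one of the 6 with an NRD border inside, with 96.8% loose and 3.23% tight. Olfm4-Pcdh17 (chr14:80023140-84443562) was loose over all of its 4420 kb and late over 92.1%. Cntnap5b-Cdh20 (chr1:100485943-104768528), between a contactin-associated protein and a cadherin, measured 4283 kb, with an index of -1.01 and a log2 value of -0.69. Slc39a10-Tmeff2 (chr1:46892853-50900646), between a zinc transporter and a transmembrane protein of the brain, measured 4008 kb and had an index of -0.79 and a log2 value of -0.86. In these 6 deserts early domains took between 0% and 7.92% of the length.

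The 17 tight and early deserts were short, with a median length of 607 kb against 1077 kb in the loose and late group. The longest of them, Olfr1507-Dad1 (chr14:52495750-54235478), measured 1740 kb but holds 171 gene segments of the T cell receptor, which the annotation does not class as protein-coding genes, so that the name desert does not hold there. It was tight over 100% and early over 82.8% of its length, with an index of 0.67 and a log2 value of 0.58. Segments of this kind, of the immunoglobulin heavy chain, were also found in Adam6a-Zfp386 (chr12:113546466-116047723), which holds 115 of them and was loose over 88.0% of its length.

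The other tight and early deserts that were named held between 1 and 17 lncRNA genes. Cd83-Jarid2 (chr13:43803133-44729473), next to the gene of a cofactor of Polycomb repressive complex, measured 926 kb, was early over 100% of its length and held 17 lncRNA genes. Rtl1-Dio3 (chr12:109600331-110279067), part of an imprinted region, measured 679 kb and held 14 lncRNA and 50 miRNA genes, with an index of 1.22 and a log2 value of 1.25. Rragc-3100002H09Rik (chr4:123936998-124609930), beside a small GTPase of nutrient sensing, measured 673 kb, held 6 lncRNA genes and had the highest log2 value of the 17, 1.40, with an index of 1.29. Gm6569-Adgrb1 (chr15:73839909-74516194), beside an adhesion receptor, measured 676 kb and had the highest index of the 17, 1.32, with 85.2% of its length early and 1 lncRNA gene. 1810013L24Rik-Grin2a (chr16:8858923-9567897), beside a subunit of the NMDA receptor, measured 709 kb and was early over 90.4% and late over 9.58%, with 4 lncRNA genes. Both flanking genes started in a TiNRD in all 17 of these deserts and both in an early domain in 15 of them.

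Most of the tight length of deserts replicated late. Of the TiNRD bases with a timing call, 63.3% were late inside deserts, 30.0% in stretches of 100 to 500 kb, 17.6% in gene bodies and 19.4% in all bases outside deserts. The share was above that of the other bases on all 19 chromosomes, from 46.0% on chromosome 3 to 83.4% on chromosome 7 in deserts, and from 10.6% to 33.2% outside. In contrast, the late share of LoNRD bases was 95.9% in deserts and 79.9% outside. The 38 deserts with at least 80% of their length tight and 80% late had a median index of 0.85, close to the 0.79 of the 17 tight and early deserts, with ranges of 0.25 to 1.33 and 0.40 to 1.32. Their median RT log2 values were -0.59 and 0.90, as the choice of the groups by timing favours. The median A/T content was 56.6% and 55.0%.

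The longest of the mostly tight and late deserts, Ywhaq-Gm10330 (chr12:21417638-23778911), beside the gene of a 14-3-3 protein, measured 2361 kb. It was tight over 100%, late over 60.5% and early over 28.9% of its length, with 5 RT borders and no NRD border inside. Auts2-Castor2 (chr5:132543345-134099710), beside a neurodevelopmental regulator, measured 1556 kb and was tight over 80.7% and late over 84.0%. Dhx35-Gm826 (chr2:158858215-160311392), beside a helicase, measured 1453 kb and was tight over 58.7% and late over 62.7%. The log2 values of the 3 deserts were -0.03, -0.37 and 0.005 in this order, so that only that of Auts2-Castor2 was clearly negative. In all 3 deserts both flanking genes started in TiNRDs, and 1 of the flanking genes started in an early and the other in a late domain.

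The opposite combination, at least 50% loose and at least 50% early, was found in 8 deserts of 535 to 1056 kb. The longest were Ptger4-Dab2 (chr15:5244188-6299787), between a prostaglandin receptor and an endocytic adaptor, Il7-Stmn2 (chr3:7613761-8509359), between a cytokine and a neuronal microtubule regulator, and Cyp7b1-Armc1 (chr3:18243339-19131401), beside a sterol hydroxylase. They were early over 52.7%, 77.7% and 62.7% of their length, and loose over 100%, 87.8% and 96.5%. Their log2 values were close to 0, with -0.01, 0.28 and 0.19, while the late deserts had a median of -0.80. The 21 deserts that were early over at least 80% of their length had a median of 0.87.

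NRD borders were sparser inside deserts. There were 3.82 NRD borders per 10 Mb of desert and 5.59 per 10 Mb of other bases, and 7.61 and 8.44 RT borders. No NRD border lay inside 390 deserts (64.9%), no RT border inside 231 (38.4%), and neither inside 184 (30.6%). Up to 3 NRD borders and up to 7 RT borders were found in 1 desert. Borders include the ends of domains beside DNA without a call, as in Tenm3-Aga, which has 2 RT borders and no early domain. LoNRDs and TiNRDs both occurred in 181 deserts (30.1%), and early and late domains both occurred in 263 (43.8%). These counts of deserts were not made for other DNA of like length. They describe the deserts only, and only the borders per 10 Mb are compared. NRDs were called from 100 kb bins smoothed over 10 bins and RT domains from 50 kb windows, and the part of this in the difference between the lists was not tested.

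Both shares rose gradually across the edges of deserts, and timing rose more. In the 50 kb just outside the 1202 edges, 62.5% of the called length was loose and 68.5% late. In the first 50 kb inside these were 64.4% and 71.9%, and between 300 and 350 kb inside they reached 76.8% and 92.6%. Between 450 and 500 kb outside they were 56.9% and 61.6%, still above the average of all other bases, where up to 28.4% of these windows lay in a neighbouring desert. No sharp step was seen at the gene that ends a desert, but bins of 100 kb smoothed over 10 bins could hardly show one for wrapping. In deserts shorter than 1 Mb the windows from the left and the right edge overlap.

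**Figure D3:**
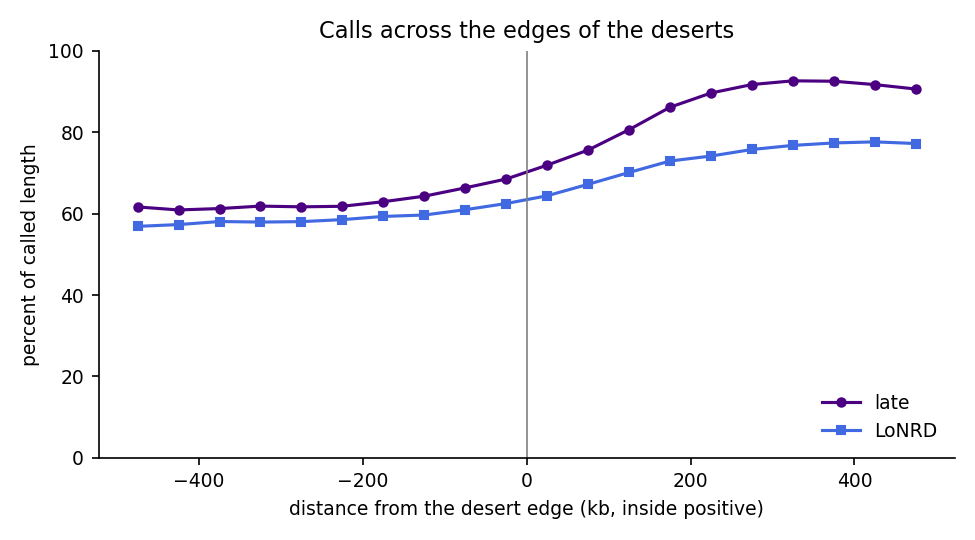
Lines show the percent of called length that is late (circles) or loose (squares) in 50 kb steps from 500 kb outside to 500 kb inside the 1202 edges of 601 deserts. Late rises from 68.5% just outside to 92.6% at 300 to 350 kb inside, and LoNRD from 62.5% to 76.8%.

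The calls at the flanking genes went with those of the desert. A flanking gene adjoins its desert and can lie in the same domain, which favours equal calls. How often calls agree at such a distance elsewhere was not computed. Of 459 deserts that were loose over at least 50% of their length, 281 had no flanking gene starting in a TiNRD and 32 had both. Of 142 deserts that were tight over at least 50%, 117 had both flanking genes starting in a TiNRD and 4 had none. For timing, of 551 deserts that were late over at least 50%, 283 had no flanking gene starting in an early domain, 234 had 1 and 34 had both. Of 43 mostly early deserts, 31 had both. At least 1 early flank was thus found beside 268 of 551 late deserts and at least 1 tight flank beside 178 of 459 loose deserts, while both flanks were early or tight in few. Over all 1064 flanking genes, 57.9% of the starts with a call were loose and 63.1% were late, and over all 20807 protein-coding genes these were 20.5% and 21.9%.

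Genes of neuronal adhesion and guidance (cadherins, protocadherins, contactins, ephrin receptors, semaphorins and others, 186 genes by symbol) lay beside deserts most often among the 5 lists. Of them 62 (33.3%) flanked a desert, compared with 1064 of 20807 (5.11%) of all protein-coding genes. Their 81 deserts were long, with a median of 1435 kb, and had a median index of -1.01 and a median log2 value of -0.83. At least 80% loose were 70 of 81 (86.4%), and at least 80% late were 69 (85.2%), with none tight and early. Over all deserts these shares were 66.1% and 70.9%, and over all deserts of at least 1 Mb they were 79.4% and 83.9%, so that the late share was near that of long deserts as a whole. The starts of these flanking genes were themselves loose in 90.3% and late in 90.3%. All genes of the list were loose at their start in 38.2% and late in 53.6%, and these shares include the members beside deserts.

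Neuronal ion channels and receptors (potassium and calcium channels, glutamate and GABA receptors, 165 genes) flanked 31 deserts through 29 genes. Of these deserts 27 (87.1%) were loose and 25 (80.6%) late over at least 80%. Chemosensory receptors, the large olfactory, vomeronasal and taste families of 1463 genes that lie in dense clusters, gave 6 flanking genes and 5 deserts. Deserts without a gene of any list at either end (n = 430) were loose in 64.9% and late in 68.4%, near the values of all deserts. Genes of 1 family can lie side by side and share a domain, and a desert can have genes of more than 1 list, so that these counts are not independent.

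Developmental transcription factors (Hox, Sox, Pax, Fox, Irx, Tbx and other families, 247 genes) gave 49 flanking genes and 54 deserts with another pattern. At least 80% loose were 22 of 54 (40.7%), while at least 80% late were 38 (70.4%). The median index was -0.16 and the median log2 value -0.69, with a median A/T content of 58.6%. The timing of these deserts was thus near that of all deserts (70.9% late over at least 80%), while their wrapping was less loose (66.1% over all deserts), and the difference was not tested.

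Of 23 pluripotency genes of the 19 chromosomes, 6 flanked 7 deserts. The deserts on either side of Sox2, a core transcription factor of ES cells, were early over 100% of their length. Dnajc19-Sox2 (chr3:34081322-34650404) was tight over all of its 569 kb, and Sox2-Atp11b (chr3:34652462-35754105) was tight over 76.9% of 1102 kb, both within 1 early domain with a log2 value of 0.72. Med13l-Tbx3 (chr5:118765439-119670668) was tight over all of its 905 kb, early over 66.9% and without a timing call over the rest, with the highest log2 value of the 7, 1.49. Klf5-Klf12 (chr14:99315037-99870631) was early over 78.3% and loose over 66.7% of 556 kb. Klf4-Actl7b (chr4:55532467-56740004) was divided, with 49.7% loose and 62.1% late over 1208 kb, and Nr5a2-Ptprc (chr1:136960449-138062860), beside a nuclear receptor, was loose over 78.3% and late over 73.7% of 1102 kb. Nectin3-Dppa4 (chr16:46498526-48283732), beside a DNA-binding protein of early embryos, was loose over 100% and late over 89.7% of 1785 kb. The 6 flanking genes all started in early domains, and 5 of the 6 started in TiNRDs. Of all 23 pluripotency genes none started late and 3 started loose, and of all protein-coding genes 21.9% started late, so that these counts do not set the 6 apart.

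Genes that stand alone between neighbouring deserts mostly started loose and late. Of 143 such blocks of genes, the longest gene started loose and late in 100 (69.9%), tight and late in 15 (10.5%), loose and early in 8 (5.59%) and tight and early in 7 (4.90%). Over all 1064 flanking genes the loose and late share was 45.6% and the tight and early share 25.8%, and over all protein-coding genes they were 13.5% and 69.7%. The difference between single blocks and the other flanking genes was not tested. The longest pairs of deserts surrounded Pcdh7 (chr5:57717967-58133230, 7273 kb of desert), Pcdh17 (chr14:84443563-84539002, 6536 kb), Pcdh9 (chr14:93013410-93890679, 6533 kb), Cdh8 (chr8:99024471-99416471, 6352 kb) and Flrt2 (chr12:95692226-95785215, 6260 kb). All 5 encode adhesion proteins of neurons, and their starts lay in NRDs with an index between -1.15 and -1.06 and in late domains with a log2 value between -1.04 and -0.82.

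Among the 7 tight and early blocks, Sox2 and Nr2f2 belonged to the lists. Nr2f2 (chr7:70351944-70366735), an orphan nuclear receptor of development, lay in a TiNRD with an index of 0.11 and an early domain with a log2 value of 0.40, between deserts of 1603 and 982 kb that were late over 87.4% and 81.3%. Myc (chr15:61985391-61990374), the growth regulator, is in no list and was picked after its values were seen. It lay in a TiNRD with an index of 0.46 and an early domain with a log2 value of 0.98, between deserts of 1062 and 1786 kb that were loose over 92.0% and 72.8% and late over 68.4% and 74.3%. The deserts on either side of Sox2, as described above, shared its early domain, while those of Nr2f2 and Myc were mostly late.

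The deserts were not free of genes of other kinds. At least 1 lncRNA gene lay in 516 of 601 deserts and a miRNA gene in 169. Deserts held 17.1% of all lncRNA genes but 28.4% of the bases, so they were poorer in lncRNA genes than the other DNA. Such a share was not computed for miRNA genes. The 2154 lncRNA genes inside deserts started loose in 59.5% and late in 77.6%, compared with 26.5% and 33.7% of all 12630 lncRNA genes of the 19 chromosomes. Deserts with no lncRNA gene (n = 85) were loose over at least 80% in 82.4%, those with 1 to 4 (n = 335) in 72.8%, and those with 5 or more (n = 181) in 45.9%. At least 80% late were 71.8%, 76.7% and 59.7%. Of the 17 tight and early deserts, 13 held 5 or more lncRNA genes and none held 0. The median A/T content of the 3 groups was 61.7%, 61.1% and 59.4%.

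The deserts with the most lncRNA genes lay in different groups. Tenm3-Aga held 21 and was loose and late. Sall3-Galr1 on chromosome 18, between a zinc finger regulator and a galanin receptor, held 19 and was tight over 100% and late over 91.9% of its 1406 kb. Pkn2-Lmo4 (chr3:142882005-144188529), between a kinase and a LIM-domain transcription cofactor, held 18 and was loose over 77.9% and late over 98.6% of 1307 kb, with a log2 value of -1.20.

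Wrapping calls of deserts went closely with base composition. Deserts held 60.8% A/T, 6.05 CpG per kb and 38.8% annotated repeat, compared with 56.9%, 9.52 and 31.3% in all other bases. Over the 601 deserts, A/T content and wrapping index had a Pearson correlation of -0.93 (Spearman -0.90), and A/T content and RT log2 value one of -0.63 (Spearman -0.53, 600 deserts with a value). The correlation of wrapping index and log2 value was 0.60 (Spearman 0.52). Deserts in the same domain share its value, and they lay in 533 NRDs and 781 RT domains, so that these values are a description.

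Deserts loose over at least 80% of their length had at least 58.48% A/T, and those tight over at least 80% had at most 60.0%. These limits, read from the wrapping calls themselves, left 148 deserts below, 84 between and 369 above. Below, 103 of 148 were tight over at least 80%, and above, 357 of 369 were loose. Limits set from wrapping favour the separation of wrapping in advance, so that the 2 measures cannot be compared by them. The timing on either side is given as a description. Late over at least 80% were 62 of the 148 deserts below, 57 of the 84 between and 307 of the 369 above. Early over at least 80% were 16 deserts below, 3 between and 2 above, and the median log2 values were -0.27, -0.67 and -0.79. The A/T content of late deserts ran from 51.3% to 64.1%, and 104 of the 148 deserts below had a negative log2 value, as had 365 of the 369 above.

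The deserts at the ends of the A/T range are described by name. The 4 of lowest A/T content, between 50.4% and 51.3%, were all tight over 100%. Gm26897-Cryba4 (chr5:111734575-112246492), beside a lens crystallin, was early over 100% of its length, Gm6569-Adgrb1 over 85.2%, and Matn1-Ptpru (chr4:130955476-131768456), between a matrix protein and a receptor phosphatase, over 50.8%. Nphp4-Ajap1 (chr4:152563184-153373220), between a protein of the cilium and one of cell junctions, was late over 83.1%, with an index of 1.28 and a log2 value of -0.17. The 4 of highest A/T content, between 63.8% and 64.1%, were all loose over 100% and late over at least 92.7%. They were Cadm2-Speer2 (chr16:67620909-69856873), Cdh9-Cdh10 (chr15:16857095-18818946), Pcdh9-4921530L21Rik (chr14:93890680-95881253) and Slitrk6-Slitrk5 (chr14:110755150-111675096). Of these 4, 3 had a flanking gene of the neuronal adhesion and guidance list, which 81 of all 601 deserts (13.5%) had.

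**Figure D4:**
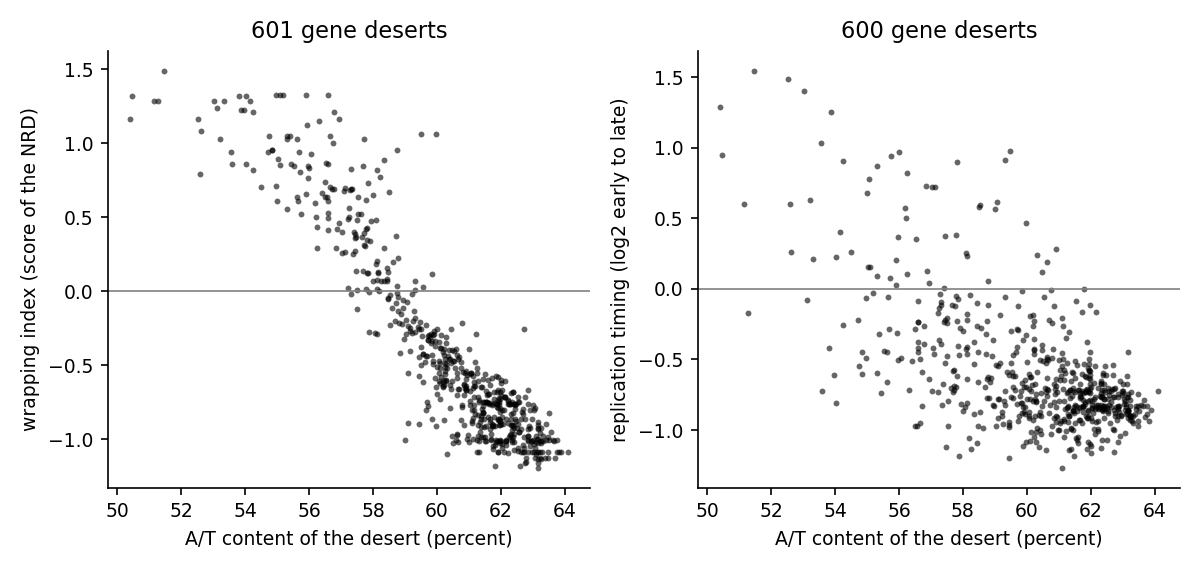
Each point is a desert, with its A/T content in percent on the horizontal axis and its wrapping index (left) or RT log2 value (right) on the vertical axis. Deserts loose over at least 80% of their length begin at 58.48% A/T, and those tight over at least 80% end at 60.0%. Both limits are read from these calls. Deserts late over at least 80% spread from 51.3% to 64.1% A/T.

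To set deserts beside other DNA of like composition, 100 kb bins were put into 20 strata by A/T content, and 19 strata with at least 20 bins of each kind were used. Without strata, bins with at least 50% of desert (n = 6773) were loose over 82.0% and the other bins (n = 16215) over 32.5%, a difference of 49.5 percentage points. Within strata the difference was 6.36 percentage points, weighted by desert bins, and the desert bins were higher in 12 of 19 strata. For late domains the difference was 50.6 percentage points without strata and 16.9 within, and the desert bins were higher in 19 of 19 strata, by 5.26 to 44.1 percentage points. The wrapping index of desert bins differed from that of the other bins by -0.85 without strata and by -0.13 within (lower in 12 of 19), and the RT log2 value by -0.99 and -0.33 (lower in 19 of 19).

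Along the A/T range the measures differed. Between 53.6% and 54.6% A/T, 0% of the length of desert bins and 0.38% of that of other bins was loose, while 55.3% and 12.7% was late. Between 58.5% and 59.1% A/T, where calls of wrapping changed, desert bins were loose over 73.4% and other bins over 45.4%, and late over 82.0% and 52.0%. Above 63.5% A/T, desert and other bins were loose over 100% and 99.7% and late over 99.4% and 92.6%. The LoNRD share cannot show a difference where it is near 0% or 100%, but the wrapping index can. Between 53.6% and 54.6% A/T the mean index was 1.02 in desert bins and 0.82 in other bins, and between 58.5% and 59.1% A/T it was -0.24 and 0.07. Desert bins had the higher index in 7 of the 19 strata, all below 57.4% A/T, and the lower index in the other 12. The difference in wrapping thus changed sign along the A/T range, while desert bins were later in each stratum. The 7 strata with the higher index hold only 44 to 182 desert bins each, of 6773. A bin carries the value of its domain, so that a few domains may weigh on the sign there. Whether A/T content acts on the wrapping of nucleosomes or on the cutting by MNase cannot be told apart in these lists.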

How the data were processed

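In brief, the 2 domain lists of R1 cells were used as deposited. For NRDs, the authors trimmed reads with cutadapt 4.3, aligned them to mm10 with Bowtie2 2.5.1, counted fragments of 50 to 140 and 140 to 250 bp in 100 kb bins, transformed their relative deviation to a z-score, smoothed it over 10 bins and called domains with homer2. Each NRD has 1 score, used as the authors gave it. For RT, the authors took log2 ratios of early to late fractions in 50 kb windows, quantile normalized them and called domains from the result. The log2 value of a domain was deposited by the authors, and its scale may depend on that normalization. How a domain value was made, and whether the RT list came from 1 or both experiments, is not given in the sources used here. No read numbers stand in the lists, so the depth behind each call cannot be read from them. The paper gives read numbers for whole libraries. Sex chromosomes were left out.

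Deserts came from GENCODE M21 (20807 protein-coding genes, 18052 merged blocks) of the same assembly, whose sequence gave A/T content and repeats. Overlaps were computed in base pairs with Python 3.11.15 and numpy 2.4.6, tested on simulated data, and differed by 0 bp from bedtools 2.31.1. Called length was the denominator of shares over many regions, and whole length of shares of 1 desert. A LoNRD or late desert held at least 80% of it. No test was done, since the lists hold no replicates. Alternatives changed the length limit, gene sets, denominators, minimum domain, edges, chromosomes and the DNA compared.

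Deserts were named by rule: the 6 longest, the 6 longest tight and early, the 3 longest at least 50% tight and late or loose and early, the 4 of lowest and of highest A/T content, the 3 with most lncRNA genes and those beside a pluripotency gene. Genes between deserts were named with the 5 longest pairs, or if tight, early and listed. The deserts, rule and lists were chosen with earlier results of these data known. The values of 1 desert are not reported here.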

Additional observations from a re-analysis of the deposited data

How the results depend on the processing

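Of 271 recomputed values of 10 results, 252 moved by less than the spread between chromosomes, the 95% Wilson interval of a share of deserts or 1.5 times for the count. No difference to other bases changed sign. Most of the values leave out 1 of 19 chromosomes, which changes little of the data, and all of these were among the 252. The Wilson interval treats deserts as independent, which they are not, so that it served only as a yardstick. The number of deserts was 248 with a limit of 1 Mb. With that limit, late length was 93.9%, loose and late length 87.3%, deserts loose over at least 80% were 79.4% and late ones 83.9%, and borders fell to 8.38 per 10 Mb from 11.4. With lncRNA genes as genes (409 deserts, 365 Mb), these were 95.4%, 90.9%, 87.3%, 84.1% and 8.13, and LoNRD length was 93.4%. With 100 kb trimmed from both ends, late length was 93.3%, loose deserts were 71.0% and late deserts 80.0%. With called length as denominator of a desert, late deserts were 76.0%. The difference to other DNA within A/T strata was 6.36 percentage points for LoNRDs and 16.9 for late domains, and that of late domains was 40.0 against stretches of 100 to 500 kb.

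Without 1 chromosome at a time, desert number was 552 to 590, LoNRD length 81.0% to 82.7%, late length 89.7% to 90.6%, loose and late length 77.9% to 79.6%, loose deserts 64.7% to 67.5%, late deserts 70.1% to 71.8%, the differences 48.1 to 49.9 and 51.4 to 53.0 percentage points, borders 11.2 to 11.6 and the late share of TiNRD length 61.4% to 64.7%. RefSeq genes (585 deserts) and other bases between the first and the last gene were added after seeing the data. RefSeq deserts covered at least 80% of the length of 560 of the 601 deserts, and those with lncRNA genes as genes of only 176 (29.3%), since added genes split or remove deserts.

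No paired analysis was possible because the lists name no replicate. Domain calls limit resolution to 100 kb and 50 kb, and counting error could not be computed.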

Other observations

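Some deserts stood apart from the others of like base composition, and they were picked after their values were seen. The tight deserts of highest A/T content were Asrgl1-Scgb2a2 on chromosome 19 (60.0% A/T, index 1.07, log2 value 0.47) and Gm10139-Gm10324 on chromosome 13 (59.5% A/T, index 1.07, log2 value 0.97). Annotated repeats covered 64.2% and 46.3% of them, where the median of all deserts was 38.0%. Only 2 deserts were loose and early over at least 80% of their length. Gap43-Zbtb20 on chromosome 16, between a protein of growing axons and a zinc finger repressor, measured 535 kb with an index of -1.10 and a log2 value of 0.24, and Pik3c3-Rit2 on chromosome 18 measured 625 kb with an index of -1.02 and a log2 value of 0.12.

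Of the 17 tight and early deserts, 3 more were picked after their values were seen. Fam49a-Mycn (555 kb, log2 value 0.82) lies beside Mycn, a relative of Myc, and was early over 100% of its length, while the desert on the other side of Fam49a was late over 79.7%. Irx3-Irx5 (556 kb, log2 value 0.26) lies between homeobox genes of the Iroquois family and was early over 98.6%. Prok2-Rybp (502 kb, log2 value 0.60) lies beside a Polycomb protein and was early over 100%.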
